A study of Mus musculus with 45 samples.

Results

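The 28 protein-coding genes whose symbols begin with *Polr1*, *Polr2* or *Polr3* followed by a letter encode most of the subunits of the 3 nuclear RNA polymerases, and were followed here among the 55385 genes of the files. The mitochondrial enzyme was left out by the rule. The set holds 5 *Polr1*, 13 *Polr2* and 10 *Polr3* genes. By the enzyme that carries the protein, 3 belong to RNA polymerase I only (*Polr1a*, *Polr1b*, *Polr1e*), 2 to RNA polymerases I and III (*Polr1c*, *Polr1d*) and 5 to all 3 enzymes (*Polr2e*, *Polr2f*, *Polr2h*, *Polr2k*, *Polr2l*). A further 7 belong to RNA polymerase II only (*Polr2a*, *Polr2b*, *Polr2c*, *Polr2d*, *Polr2g*, *Polr2i*, *Polr2j*) and 10 to RNA polymerase III only, and *Polr2m* encodes Gdown1, a protein that associates with RNA polymerase II.

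Libraries came from mouse embryos and embryonic stem (ES) cells of the genotype Gabpa-dTAG/dTAG, in which both alleles of *Gabpa*, an ETS-family transcription factor gene, carry a degron tag; the controls carry it too. The small molecule dTAG13 brings the tagged protein to a ubiquitin ligase, so the protein is removed while its messenger RNA is still made, and the RNA level of *Gabpa* therefore does not check the depletion. Late two-cell embryos were held in 1 μM dTAG13 or DMSO vehicle from 6 h after fertilization (hpf) to 30 hpf (3 libraries per group), and morulae from 42 hpf (2 per group). Inner cell mass labelled E4.5 ICM was isolated at 100 hpf after treatment from 84 hpf (2 per group). The ES cells, kept in 2i medium and called 2iES cells, came from picked clones and were treated with 0.5 μM for 24 h (2 per group). Embryos were made by in vitro fertilization from females of 7 to 8 weeks and males of 8 to 12 weeks, and the number of embryos per library is not given in the sources used here. The study describes its RNA-seq replicates of the late two-cell stage, the E4.5 ICM and 2iES cells as biological, and the labels tie no library to a collection of embryos or a culture.

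RNA polymerase I transcribes the large ribosomal RNA precursor, RNA polymerase II the messenger RNAs, and RNA polymerase III transfer RNAs, the small ribosomal 5S RNA and other short RNAs. Each enzyme is built around a pair of large catalytic subunits, an assembly pair and a set of small subunits of which several are common to all. The two-cell embryo of the mouse is the stage at which the embryo begins large-scale transcription of its own genome, with enzymes laid down in part by the oocyte.

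Promoters are shown because GABPA binds a core with the letters CCGGAAG, and the data concern its removal. Of the 28 genes, 22 had a window in the RefSeq promoter table for GRCm38.p6, spanning 250 bases before to 50 after a start. Among those with none were *Polr2d*, *Polr2g*, *Polr2k*, *Polr3a* and *Polr3d*. On either strand, CCGGAAG stood in the windows of 7 of the 22 genes, against 8.86% of all 32851 windows and 14.5% of the 16959 windows of genes tested at a stage. The shorter CGGAAG, which overlaps it, stood in 12 of the 22, against 16.9% and 25.9%. Each site is printed 5′ to 3′ on the strand of its gene, with the motif letters of either strand in capitals.
*Polr1c*, chr17:46248070-46248098, minus strand, 42 bases before the start: ccacttgacgtCCGGAAGtgaaggacgtg
*Polr1e*, chr4:45018623-45018651, plus strand, base 26 after the start: ctagaatgtcaCTTCCGGtttttgagtcc
*Polr2c*, chr8:94857456-94857484, plus strand, base 18 after the start: cccgcgactagCCGGAAGcgccgattgcc
*Polr2f*, chr15:79141297-79141325, plus strand, 17 bases before the start: gccgctgcttcCCGGAAGtaactgcgcct
*Polr2j*, chr5:136116661-136116689, plus strand, 19 bases before the start: ggctgagaaatCCGGAAGtggtcgcgctt
*Polr3b*, chr10:84622276-84622304, plus strand, 11 bases before the start: cggctcggtcaCTTCCGGgttcctccgca
*Polr3g*, chr13:81711025-81711053, minus strand, 29 bases before the start: taaaaagctctCTTCCGGgggtgtggcct
Both *Polr2h* and *Polr2m*, among the most reduced members below, lacked the longer word in these windows but held the shorter one, *Polr2h* in 2 places.
*Polr2h*, chr16:20717715-20717742, plus strand, 100 bases before the start: gcccttcccggCGGAAGtgaagaagccc
*Polr2h*, chr16:20717746-20717773, plus strand, 69 bases before the start: gaaggaggcagCGGAAGtggctgcgtga
*Polr2m*, chr9:71485997-71486024, minus strand, 30 bases before the start: cggtgatgtaaCTTCCGcccctgcacgc
The windows of *Polr2b*, *Polr1d* and *Polr3gl*, also discussed below, held neither word. A match describes the letters and is not a measured binding site.

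Expected counts summed to between 9457933 and 27660132 per library, lowest in morulae (9457933 to 12382705). Levels are given in TPM, which RSEM corrects for transcript length and library size, and fold changes come from the counts. A gene was called where edgeR's quasi-likelihood test gave a Benjamini-Hochberg adjusted p under 0.05 over all genes tested, the fold change was at least 2 and the mean FPKM at least 1 in a group. Replicates of the E4.5 ICM lay close to counting noise, with a biological coefficient of variation of 0.0237 against 0.284, 0.213 and 0.159 in late two-cell embryos, morulae and 2iES cells. Changes far below 2-fold therefore passed the adjusted p at that stage. Where 1 library of a group of 2 was left out, the lone library was assumed to vary like the other group of its stage. Marker genes moved with treatment. The summed TPM of 6 trophectoderm markers in the E4.5 ICM was 66.5 to 72.5 with DMSO and 775.2 to 775.7 with dTAG13. Over 6 epiblast and naive pluripotency markers the sums there were 662.2 to 679.6 and 352.0 to 358.6, and over 5 primitive endoderm markers 262.9 to 269.7 and 385.8 to 386.4. Among the latter *Sox17*, unlike the sum, went from a mean of 104.8 to 95.3. The epiblast and naive list summed to 441.1 to 526.6 with DMSO and 302.7 to 331.7 with dTAG13 in 2iES cells. In late two-cell embryos 4 oocyte markers summed to 1329.7 to 1344.1 and 1689.2 to 1925.0. The part of these differences in the results was not tested, and in such samples fewer cells of a type cannot be told apart from less RNA per cell.

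Control libraries were first compared to learn how much of each subunit the untreated cells carried. Small subunits shared by all enzymes or confined to RNA polymerase II stood highest. At the late two-cell stage *Polr2j*, which with *Polr2c* forms the assembly pair of RNA polymerase II, reached 1361 TPM ± 74.9 (SD, n = 3) and *Polr2f* 851 ± 28.3. The largest subunit of each enzyme stood low, with *Polr2a*, the largest subunit of RNA polymerase II, at 2.8 ± 0.889, *Polr1a*, its counterpart in RNA polymerase I, at 10.5 ± 1.27, and *Polr3a*, that of RNA polymerase III, at 25.9 ± 2.55. Their catalytic partners *Polr2b* and *Polr3b* stood higher, at 67.8 ± 2.29 and 55.6 ± 8.91, and *Polr1b* at 8.4 ± 1.43. Across the 28 genes, mean TPM fell with annotated exonic length, with a Spearman rho of -0.66 at the late two-cell stage, -0.69 in morulae, -0.73 in the E4.5 ICM and -0.74 in 2iES cells. These are descriptions over genes that share libraries, with no test.

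**Figure D1:**
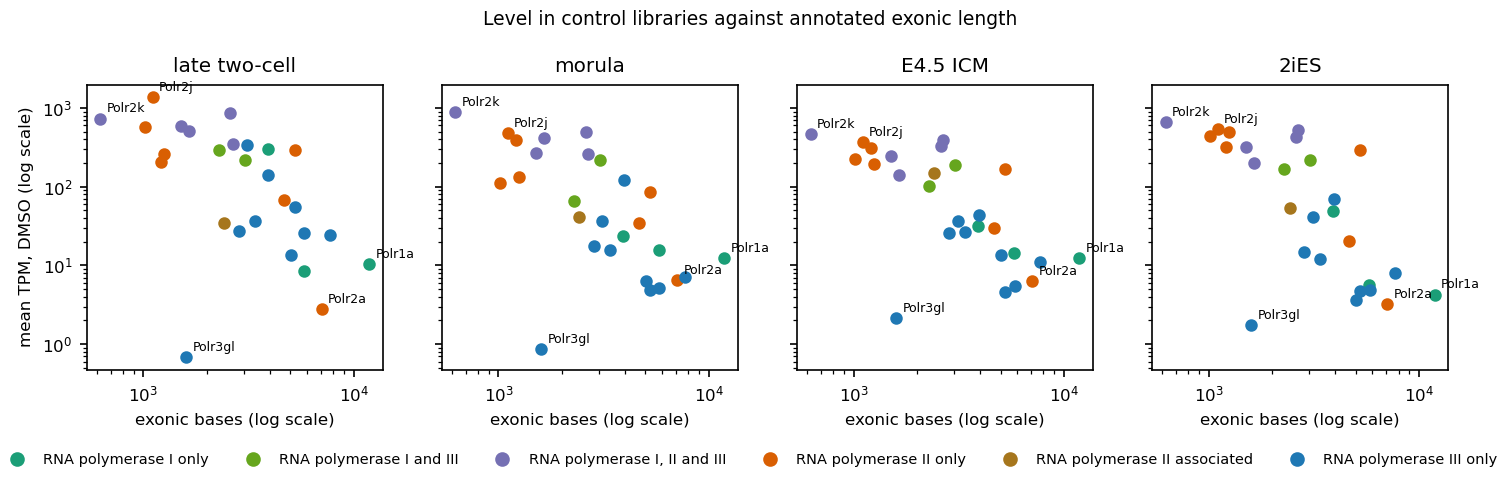
Mean TPM of each of 27 of the genes in DMSO libraries (vertical, log scale) against its merged exonic bases in the annotation (horizontal, log scale), 1 panel per stage, coloured by enzyme. The short small subunits (*Polr2k*, *Polr2j*) sit at the upper left, the catalytic *Polr2a* and *Polr1a* at the lower right, and *Polr3gl* is the lowest point at every stage.

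Between control late two-cell embryos and control morulae, 8 of 28 members were called lower (27.7% of all genes tested) and 3 higher (22.6%), with a member median of -0.54 on the log2 scale beside -0.28 for all genes. *Polr1e*, a subunit of RNA polymerase I that acts in initiation and elongation, went from 307.0, 322.3 and 283.0 TPM to 19.4 and 27.4, a log2 difference of -3.55 ± 0.23 (SE, edgeR adjusted p = 4.34e-08). *Polr3k*, which acts in transcript cleavage and termination by RNA polymerase III, went from 354.1, 358.4 and 303.4 to 32.8 and 41.5 (-2.91 ± 0.17, edgeR adjusted p = 2.69e-08). The 3 *Polr3* genes called lower, *Polr3a*, *Polr3b* and *Polr3k*, had no *Polr3* gene called higher beside them, and the RNA polymerase III only genes together summed to 650.5 to 748.0 TPM at the late two-cell stage and 283.3 to 296.7 in morulae. Most of that drop was *Polr3k*, and the other 9 genes summed to 347.2 to 389.6 and 241.8 to 263.9 TPM. Beyond these, *Polr1c*, *Polr2c*, *Polr2d* and *Polr2j* were called lower by 1.10 to 2.07 on the log2 scale. The 3 genes called higher in morulae were *Polr2a* (1.54 ± 0.30), *Polr2i* (1.23 ± 0.14) and *Polr1b* (1.25 ± 0.20), and on log2(TPM + 1) values with limma none of the members passed the call rule in that direction.

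From the morula to the E4.5 ICM, 4 members were called lower (13.2% of all genes) and 1 higher (16.0%). Of the 4, *Polr3g*, treated with its paralogue below, gave -1.3 ± 0.15, while *Polr2f* (-1.18 ± 0.15), *Polr2k* (-1.38 ± 0.16) and *Polr2l* (-1.95 ± 0.13) are subunits common to all enzymes, and the median over the 5 common genes was -1.18 beside 0.00 for all genes. *Polr2l* stood at 439.9 and 395.9 TPM in morulae and at 136.5 and 143.9 in the E4.5 ICM. The mean TPM of *Polr2f* went from 491.4 to 326.1 and that of *Polr2k* from 885.5 to 469.1, both short of 2-fold. The member called higher was *Polr2m*, from 40.3 and 42.5 to 147.1 and 150.3 TPM (1.47 ± 0.17, edgeR adjusted p = 2.47e-05). On log2(TPM + 1) values with limma, 2 members were called lower and 3 higher (1593 and 3643 of all genes). Between the E4.5 ICM and 2iES cells the direction hung on scaling: after TMM scaling 9 members were called higher (12.0% of all genes) and 1 lower (12.7%), while with library totals, which moved the median of all genes by -0.33, 2 were higher and 6 lower. Of all 19830 genes tested, 1260 were then called higher and 3864 lower. *Polr2g*, a stalk subunit of RNA polymerase II, stood at 196.9 and 192.1 TPM in the E4.5 ICM and at 481.2 and 497.5 in 2iES cells, a log2 difference of 2.00 ± 0.15.

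**Figure D2:**
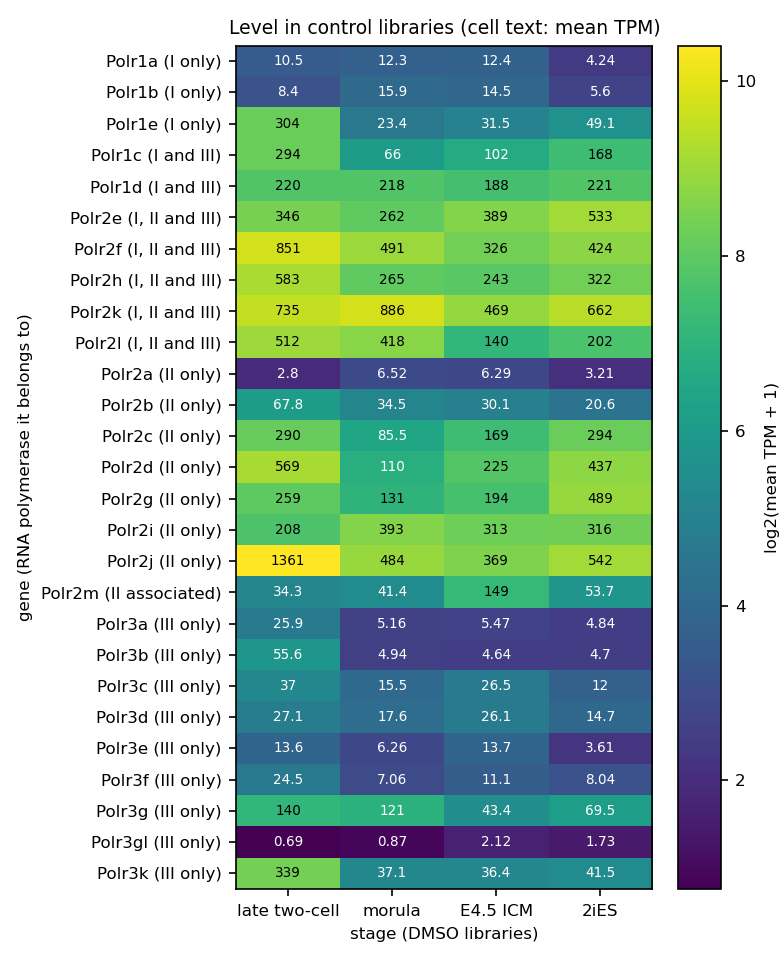
Mean TPM of each of 27 genes (rows, grouped by the enzyme it belongs to) in the DMSO libraries of each stage (columns), printed in the cell and coloured as log2(TPM + 1). *Polr1e* and *Polr3k* drop from 304 and 339 TPM at the late two-cell stage to 23.4 and 37.1 in morulae, while *Polr2m* peaks at 149 in the E4.5 ICM.

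Removal of GABPA was then compared with DMSO at each stage. At the late two-cell stage 2 of 28 members were called lower, *Polr2m* and *Polr3d*, against 3.63% of all 17421 genes tested, and none higher, against 0.476%. For the higher direction edgeR gave 0 members at an unadjusted p under 0.05 (7.93% of all genes) and DESeq2 called 0. By the adjusted p alone 9 were lower (7.24% of all genes) and 0 higher (1.32%), and 26 of the 28 values lay below 0, with a median of -0.27 on the log2 scale beside 0.02 for all genes. In morulae no member was called in either direction by edgeR or DESeq2 (0.198% of genes lower and 0.154% higher), nor by edgeR's adjusted p alone (0.205% and 0.161%), and 3 members were lower (6.91% of all genes) and 0 higher (6.66%) at an unadjusted p under 0.05. *Polr3gl* was not tested there for low counts.

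The E4.5 ICM had 3 members called lower, *Polr1e*, *Polr2d* and *Polr2h* (13.2% of all genes), and 1 higher, *Polr2b* (12.1%). By the adjusted p alone 18 were lower (38.5%) and 7 higher (38.4%), with a median of -0.53 beside 0.01. With all 18 libraries in 1 fit, which takes in the wider spread of the other stages, *Polr1c*, *Polr2a*, *Polr2e*, *Polr2f*, *Polr2g*, *Polr2k*, *Polr2l*, *Polr3b*, *Polr3f* and *Polr3k* no longer passed it. In 2iES cells 7 were called lower, among them *Polr1d*, *Polr2d*, *Polr2h*, *Polr2m*, *Polr3d* and *Polr3gl* (15.6%), and 1 higher, again *Polr2b* (12.4%). By the adjusted p alone 17 were lower (28.1%) and 2 higher (26.5%), with a median of -0.73 beside 0.03. By enzyme, the medians of the genes of RNA polymerase I only, II only and III only were -0.10, -0.07 and -0.29 in late two-cell embryos, -0.80, -0.50 and -0.62 in the E4.5 ICM and -0.25, -0.79 and -0.68 in 2iES cells. The order of these medians differed among these 3 stages, a description with no test, and there the members of every enzyme spread more widely than the medians did. In morulae the medians were -0.13, 0.07 and -0.18, in the same order as in late two-cell embryos.

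**Figure D3:**
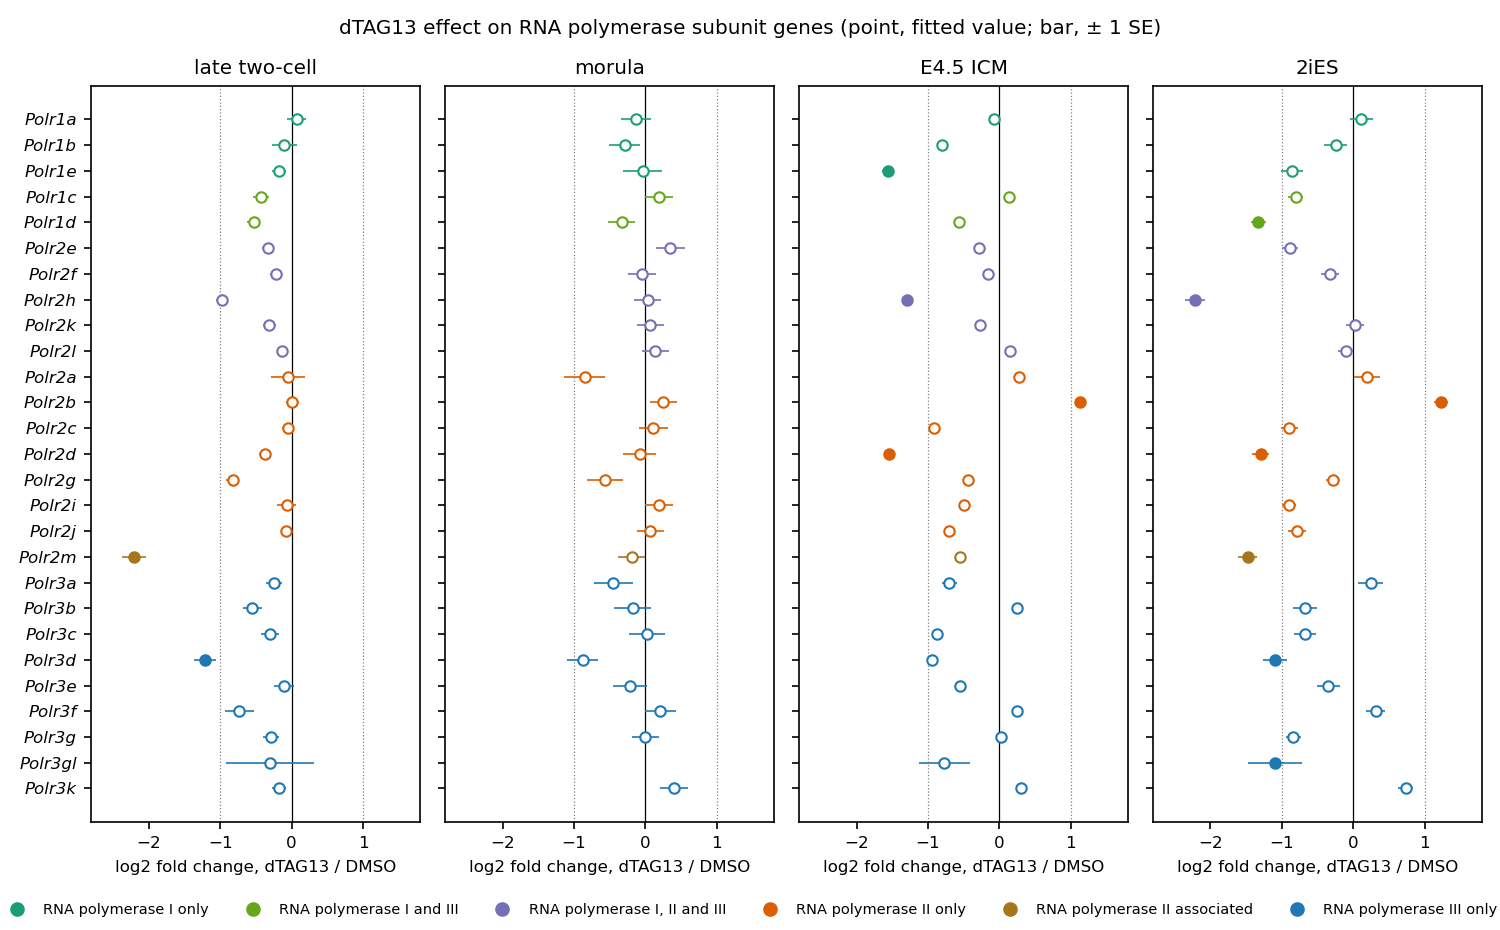
Fitted log2 fold change of dTAG13 against DMSO for each of 27 genes (rows, coloured by enzyme), with 1 SE, in the 4 stages. Filled points passed the call rule and dotted lines mark a 2-fold change; *Polr2b* is the only filled point to the right of 0, in the E4.5 ICM (1.13) and 2iES cells (1.23), and no point is filled in morulae.

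RNA polymerase I. Of the genes confined to this enzyme, *Polr1e* (chr4:45018583-45036565, GRCm38, plus strand) was lower with dTAG13 in the E4.5 ICM and by the adjusted p alone in 2iES cells. It stood at 31.5 and 31.4 TPM with DMSO and 12.6 and 13.3 with dTAG13 in the E4.5 ICM, a fall by 1.56 on the log2 scale (SE 0.09, 2.96-fold, edgeR adjusted p = 3.18e-18), with no overlap of the groups. In 2iES cells its values were 53.6 and 44.7 with DMSO and 25.3 and 26.4 with dTAG13, short of 2-fold on counts at -0.86 ± 0.16, though past it without DMSO replicate 2 (-1.03) or dTAG13 replicate 2 (-1.02). Late two-cell embryos held far more of this transcript, at 307.0, 322.3 and 283.0 TPM with DMSO and 309.5, 276.5 and 243.8 with dTAG13, and there the groups overlapped (-0.18 ± 0.10, edgeR adjusted p = 0.378), as they did in morulae, at 19.4 and 27.4 against 19.8 and 22.3 TPM.

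The catalytic pair of RNA polymerase I moved less. *Polr1a* in late two-cell embryos stood at 10.7, 9.08 and 11.6 TPM in DMSO libraries against 13.5, 8.66 and 12.6 in dTAG13 libraries, at 12.2 and 12.6 against 13.3 and 15.8 in the E4.5 ICM, and at 4.03 and 4.44 against 6.32 and 5.64 in 2iES cells. Its fitted log2 fold changes lay between -0.13 and 0.11 and none passed the adjusted p, although its TPM groups did not overlap at the last 2 stages. Its effective length went there from 3713 to 3118 bases in the E4.5 ICM and from 4600 to 3364 in 2iES cells. Its partner *Polr1b* passed the adjusted p in the E4.5 ICM, from 14.0 and 15.1 TPM to 9.78 and 8.51 (-0.80 ± 0.06, edgeR adjusted p = 4.04e-14). In morulae *Polr1b* stood at 12.9 and 19.0 with DMSO and 15.1 and 11 with dTAG13, overlapping.

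Assembly pair of RNA polymerases I and III. *Polr1d* (chr5:147077050-147111597, plus strand) was lower with dTAG13 in every library of every stage. Its TPM went from 210.1, 231.1 and 217.7 to 166.7, 147.5 and 166.0 at the late two-cell stage (-0.53 ± 0.09, edgeR adjusted p = 0.0043), from 182.9 and 192.2 in E4.5 ICM controls to 132.2 and 129.9 (-0.56 ± 0.03, edgeR adjusted p = 1.60e-17) and from 231.4 and 211.4 to 82.9 and 84.3 in 2iES cells. The 2iES difference was a fall by 1.33 (SE 0.10, 2.52-fold, edgeR adjusted p = 1.31e-04). Morulae gave 217.3 and 218.5 against 172.4 and 173.6, without overlap, but -0.33 ± 0.19 did not pass the test (edgeR adjusted p = 0.469).

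Its partner *Polr1c* did not follow it at each stage. In 2iES cells it fell from 180.6 and 156.1 TPM to 91.8 and 90.0 (-0.81 ± 0.11, edgeR adjusted p = 0.00105), and at the late two-cell stage from 269.5, 314.1 and 299.2 to 257.4, 226.9 and 213.0 (-0.43 ± 0.11, edgeR adjusted p = 0.0305). At the earlier stage it no longer passed the adjusted p when any of 5 of the 6 libraries was left out (0.0532 to 0.114). *Polr1c* was instead higher in the E4.5 ICM, at 103.0 and 102.1 against 118.8 and 121.5 TPM (0.13 ± 0.04, edgeR adjusted p = 0.00152, but 0.436 with all 18 libraries in 1 fit), and in morulae 62.6 and 69.3 stood against 81.5 and 69.7 (0.19 ± 0.19). The difference of its dTAG13 effect between the E4.5 ICM and 2iES cells was 0.93 ± 0.10 (edgeR adjusted p = 1.60e-04).

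Subunits of all 3 enzymes. *Polr2h* (chr16:20717665-20722267, plus strand), a small subunit present in each enzyme, gave the deepest fall of the set in 2iES cells. It went there from 354.7 and 290.0 TPM to 61.8 and 71.7, a fall by 2.21 (SE 0.14, 4.64-fold, edgeR adjusted p = 6.95e-05). Its E4.5 ICM values went from 233.5 and 251.7 to 104.6 and 97.9 (fall by 1.29, SE 0.04, 2.45-fold, edgeR adjusted p = 7.27e-26). Late two-cell values were 581.5, 588.4 and 580.6 with DMSO and 324.6, 297.5 and 295.4 with dTAG13, just short of 2-fold at -0.97 ± 0.08 (edgeR adjusted p = 3.14e-05). Only in morulae did the groups overlap, at 260.7 and 269.6 against 257.2 and 293.8 TPM (0.03 ± 0.19). Of the 31-base words of its transcripts 18% also occur in other genes, among them *Gm7511*. That share was higher for *Polr2c* (30.8%), *Polr2l* (27.3%), *Polr2k* (27.3%) and *Polr2i* (22.3%).

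None of the other common subunits passed the call rule with all libraries, and they differed in direction. *Polr2e* was lower by the adjusted p in 2iES cells (-0.89 ± 0.11, or -1.01 without DMSO replicate 2, past 2-fold), the E4.5 ICM (-0.29 ± 0.03) and late two-cell embryos (-0.33 ± 0.08), the last lost without any of 5 of the 6 libraries (edgeR adjusted p = 0.0835 to 0.123), and in morulae stood at 236.6 and 287.8 TPM with DMSO and 374.3 and 291.7 with dTAG13 (0.35 ± 0.20, edgeR adjusted p = 0.465). *Polr2l*, the least changed common subunit at the late two-cell stage, stood there at 519.4, 498.8 and 517.8 against 533.5, 484.6 and 454.2, overlapping, and was higher in the E4.5 ICM, at 136.5 and 143.9 against 156.7 and 163.8 (0.15 ± 0.03, edgeR adjusted p = 4.76e-05). *Polr2k* did not pass the test in 2iES cells, at 586.2 and 738.0 against 618.8 and 628.0 TPM (0.02 ± 0.13). *Polr2f*, whose window holds CCGGAAG, gave values from -0.33 to -0.05 over the 4 stages and passed the adjusted p in the E4.5 ICM alone (-0.16 ± 0.03).

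RNA polymerase II. The catalytic subunit *Polr2b* (chr5:77310147-77349324, plus strand) was the 1 member called higher at any stage with dTAG13. The E4.5 ICM libraries went from 29.9 and 30.3 TPM to 67.4 and 68.6 (1.13 ± 0.03, 2.18-fold, edgeR adjusted p = 8.31e-28), and in 2iES cells from 20.1 and 21.2 to 46.8 and 46.0 (1.23 ± 0.10, 2.34-fold, edgeR adjusted p = 1.83e-04). At the late two-cell stage the groups overlapped, at 67.1, 70.3 and 65.8 against 72.8, 72.2 and 68.8 (0.01 ± 0.09), as in morulae, at 30.9 and 38.1 against 42.9 and 38.0. Its larger partner *Polr2a* was low throughout and stood at 6.15 and 6.43 against 7.62 and 7.83 TPM in the E4.5 ICM (0.27 ± 0.06, edgeR adjusted p = 6.58e-05) and at 2.72 and 3.71 against 3.9 and 3.43 in 2iES cells, overlapping. In morulae *Polr2a* held 8.7 and 4.35 TPM with DMSO and 3.48 and 3.74 with dTAG13 (-0.85 ± 0.29, edgeR adjusted p = 0.235), and leaving out DMSO replicate 2 made this -1.27 with an edgeR adjusted p of 0.0108, in a fit whose spread came from the 2 dTAG13 libraries alone.

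The stalk of RNA polymerase II, made of *Polr2d* and *Polr2g*, was lower by the adjusted p at 3 stages but with the pair unequal. *Polr2d* (chr18:31789159-31796701, plus strand) fell from 220.1 and 230.1 TPM to 83.6 and 80.5 in the E4.5 ICM (fall by 1.54, SE 0.04, 2.92-fold, edgeR adjusted p = 1.22e-29) and from 484.2 and 389.1 to 172.5 and 174.0 in 2iES cells (fall by 1.3, SE 0.12, 2.46-fold, edgeR adjusted p = 2.64e-04). Late two-cell embryos gave 569.0, 562.5 and 576.7 against 477.2, 468.6 and 442.7 (-0.37 ± 0.08, edgeR adjusted p = 0.0127, but 0.0517 and 0.0569 without dTAG13 replicate 1 or 3 and 0.0737 with all 18 libraries in 1 fit), and morulae 88.3 and 131.6 against 90.3 and 119.7, overlapping. In morulae *Polr2g* stood at 118.4 and 144.3 against 63.2 and 109.8 TPM, without overlap. Its -0.57 ± 0.25 there did not pass the test (edgeR adjusted p = 0.351). *Polr2g* instead changed most at the late two-cell stage, from 250.3, 265.4 and 261.1 to 155.8, 152.4 and 165.2 (-0.82 ± 0.09, edgeR adjusted p = 2.00e-04), and less in the E4.5 ICM (-0.44 ± 0.04) and 2iES cells (-0.29 ± 0.10), where it missed the adjusted p without either dTAG13 library (0.35 and 0.187).

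The assembly pair *Polr2c* and *Polr2j*, both with CCGGAAG in their windows, were both lower in the E4.5 ICM (-0.91 ± 0.03 and -0.70 ± 0.04) and in 2iES cells (-0.90 ± 0.12 and -0.79 ± 0.12), passing the adjusted p but not the 2-fold limit, except for *Polr2c* without 2iES DMSO replicate 2 (-1.06). At the late two-cell stage neither passed, with *Polr2j* at 1368.5, 1282.0 and 1431.3 against 1337.5, 1315.1 and 1323.8 TPM, and in morulae *Polr2j* stood at 461.4 and 507.6 against 492.4 and 514.3. *Polr2i* gave -0.50 ± 0.04 in the E4.5 ICM and -0.90 ± 0.10 in 2iES cells on counts. Its mean TPM went from 313.1 to 269.1 and from 316.3 to 200.7, with effective lengths going from 387 to 329 and from 392 to 316 bases. Reads here are unstranded, and 18.1%, 15.9% and 26.8% of the exonic bases of *Polr2c*, *Polr2j* and *Polr2i* overlap the antisense genes *Dok4*, *Lrwd1* and *Tbcb*, so the shares of the partners cannot be told apart.

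*Polr2m* (chr9:71478437-71485935, minus strand) was the most reduced member of the late two-cell stage. Its protein, Gdown1, binds RNA polymerase II and restrains initiation. It stood at 37.8, 27.2 and 37.8 TPM with DMSO and at 7.57, 6.71 and 9.14 with dTAG13, a fall by 2.20 (SE 0.17, 4.61-fold, edgeR adjusted p = 1.75e-05), with the groups far apart. In 2iES cells it went from 58.8 and 48.5 to 18.5 and 17.8 (fall by 1.48, SE 0.13, 2.79-fold, edgeR adjusted p = 2.01e-04). The E4.5 ICM, where control levels were highest, gave 147.1 and 150.3 against 106.1 and 103.6 (-0.55 ± 0.03, edgeR adjusted p = 3.76e-19). In morulae 40.3 and 42.5 stood against 39.0 and 33.3 (-0.19 ± 0.19, edgeR adjusted p = 0.706).

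**Figure D4:**
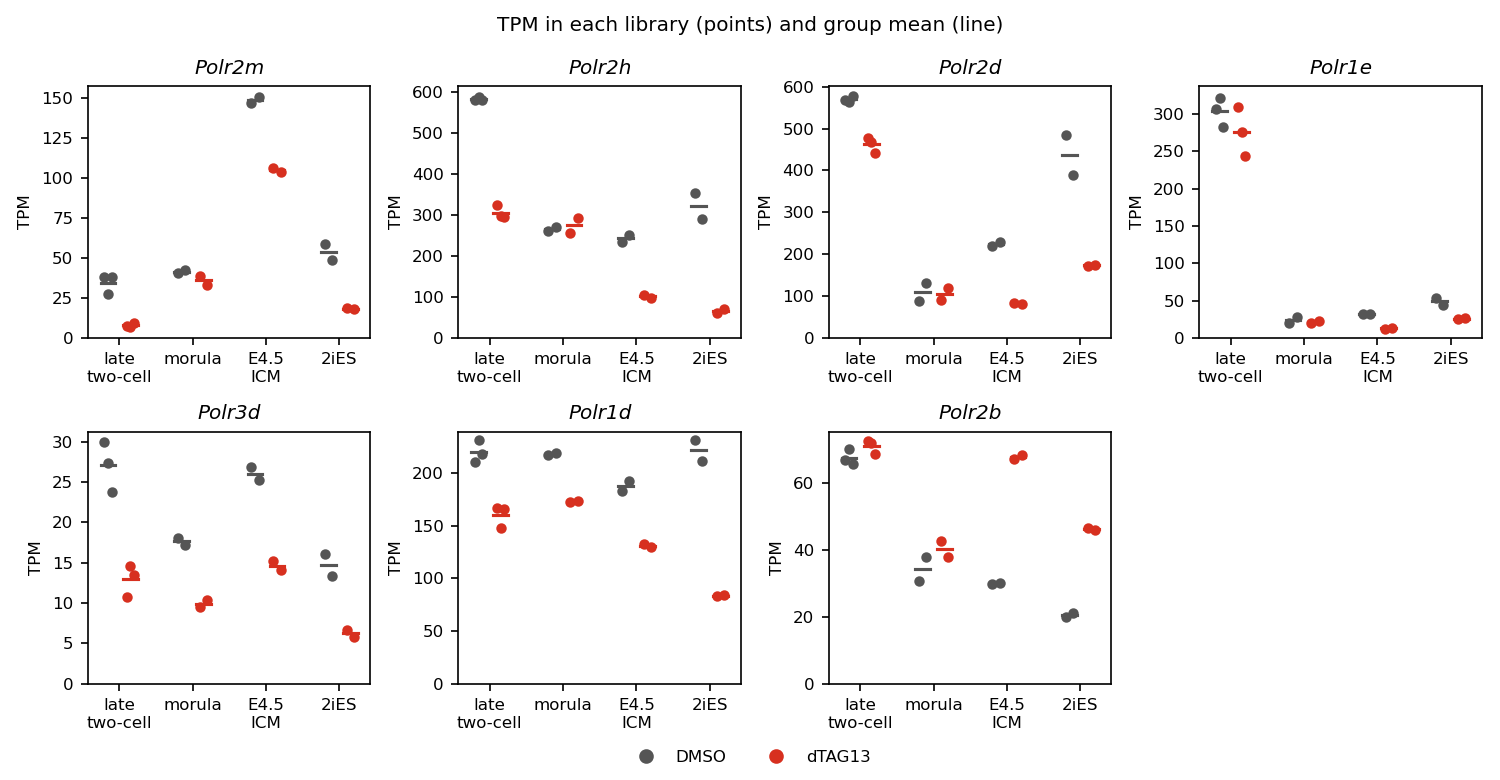
TPM (vertical, from 0) of 7 genes that passed the call rule, in each library (points) with the group mean (line), DMSO in grey and dTAG13 in red, by stage. The dTAG13 points lie under the DMSO points at every stage for *Polr3d*, *Polr1d* and *Polr2m*, and above them for *Polr2b* in the E4.5 ICM and 2iES cells.

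RNA polymerase III. *Polr3d* (chr14:70438757-70443447, minus strand) pairs with *Polr3e* in a part of the enzyme used in initiation and termination, and was lower in every dTAG13 library at every stage. At the late two-cell stage it went from 30, 27.4 and 23.8 TPM to 10.7, 14.6 and 13.5 (fall by 1.21, SE 0.15, 2.32-fold, edgeR adjusted p = 5.78e-04), and in 2iES cells from 16.1 and 13.3 to 6.65 and 5.82 (fall by 1.10, SE 0.17, 2.15-fold, edgeR adjusted p = 0.002). Without 2iES dTAG13 replicate 1 the latter was -0.99 and no longer 2-fold. The E4.5 ICM gave 26.8 and 25.3 against 15.2 and 14.1 (-0.94 ± 0.07, edgeR adjusted p = 4.41e-15), which passed 2-fold without DMSO replicate 2 (-1.02). Morulae gave 18.1 and 17.2 against 9.48 and 10.4, the largest fitted fall among members there, which did not pass the test (-0.88 ± 0.22, edgeR adjusted p = 0.117). *Polr3e* moved less, at 14.4, 13.0 and 13.2 against 15.1, 11.8 and 13.5 TPM at the late two-cell stage, overlapping, and at 13.5 and 14.0 against 10.2 and 9.9 in the E4.5 ICM (-0.55 ± 0.06, edgeR adjusted p = 1.18e-09).

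Of the catalytic pair of RNA polymerase III, *Polr3a* gave -0.70 ± 0.10 in the E4.5 ICM on counts, with overlapping TPM of 6.09 and 4.86 against 4.8 and 5.16 and an effective length going from 3376 to 2355 bases. Limma on log2(TPM + 1) gave -0.11 there (adjusted p = 0.494). In 2iES cells, where *Polr3a* changed least of the enzyme's genes, it stood at 4.72 and 4.97 against 5.32 and 5.77 (0.24 ± 0.17). *Polr3b* was lower in late two-cell embryos (-0.55 ± 0.13) and 2iES cells (-0.68 ± 0.17), of which the first was lost without any of 5 of the 6 libraries (edgeR adjusted p = 0.0532 to 0.0914) and the second without either dTAG13 library (0.131 and 0.108). It was higher in the E4.5 ICM (0.25 ± 0.08), where it no longer passed the adjusted p without dTAG13 replicate 2 (0.09, edgeR adjusted p = 0.4), under DESeq2 (adjusted p = 0.118) or with limma (adjusted p = 0.146). *Polr3k* was higher with dTAG13 in 2iES cells, from 40.6 and 42.5 to 64.1 and 65.8 TPM (0.73 ± 0.10, edgeR adjusted p = 0.00141), and in the E4.5 ICM, at 34.8 and 38.1 against 46.2 and 45.6 (0.30 ± 0.04, edgeR adjusted p = 7.10e-09). *Polr3c* and *Polr3f*, parts of the initiation subcomplex, gave -0.88 ± 0.06 and 0.25 ± 0.07 in the E4.5 ICM, and the latter missed the adjusted p without DMSO replicate 2 (0.15, edgeR adjusted p = 0.138). At the late two-cell stage *Polr3f* stood at 20.1, 28.4 and 24.8 against 12.3, 7.48 and 12.7 TPM, wide apart, but its counts gave -0.73 ± 0.20 (edgeR adjusted p = 0.0513), with an effective length going from 1629 to 2271 bases; limma on log2(TPM + 1) gave -1.13 (adjusted p = 0.0136).

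*Polr3g* and *Polr3gl* are paralogues that take the same place in that subcomplex, *Polr3g* being known from pluripotent cells and *Polr3gl* from most tissues. Nearly all of the pair's TPM was *Polr3g*. Late two-cell libraries held 138.6, 149.1 and 133.8 TPM of *Polr3g* in DMSO against 121.9, 126.7 and 98.7 in dTAG13, while *Polr3gl* held 0.38, 0.64 and 1.05 against 1.03, 0.58 and 1.05. The share of *Polr3gl* in the pair was 0.273% to 0.779% in the late two-cell controls, 0.132% and 1.3% in those of morulae, 3.43% and 5.82% in those of the E4.5 ICM and 2.18% and 2.67% in those of 2iES cells. *Polr3g* was lower with dTAG13 in 2iES cells, from 70.9 and 68.2 to 38.0 and 40.5 TPM (-0.84 ± 0.11, edgeR adjusted p = 0.00107), but not in the E4.5 ICM, at 42.3 and 44.5 against 45.7 and 49.7 (0.02 ± 0.05), and the difference between these effects was 0.85 ± 0.11 (edgeR adjusted p = 3.12e-04). In morulae it stood at 120.4 and 121.2 against 109.7 and 109.0 TPM, with 0.00 ± 0.19 on counts. *Polr3gl* rests on 12 to 45 counts per library in 2iES cells, where it went from 1.58 and 1.87 TPM to 0.66 and 0.64 (fall by 1.10, SE 0.38, edgeR adjusted p = 0.0458), a call lost under DESeq2 (adjusted p = 0.185) and when any of 3 of the 4 libraries was left out (edgeR adjusted p = 0.11 to 0.22). The E4.5 ICM gave 1.5 and 2.75 TPM against 1.26 and 1.4 (-0.77 ± 0.36, edgeR adjusted p = 0.0524), which passed the call rule without DMSO replicate 1 (-1.2, edgeR adjusted p = 0.00927) in a fit whose spread came from the dTAG13 libraries alone, and morulae held 1.58 and 0.16 against 0.3 and 0 TPM.

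**Figure D5:**
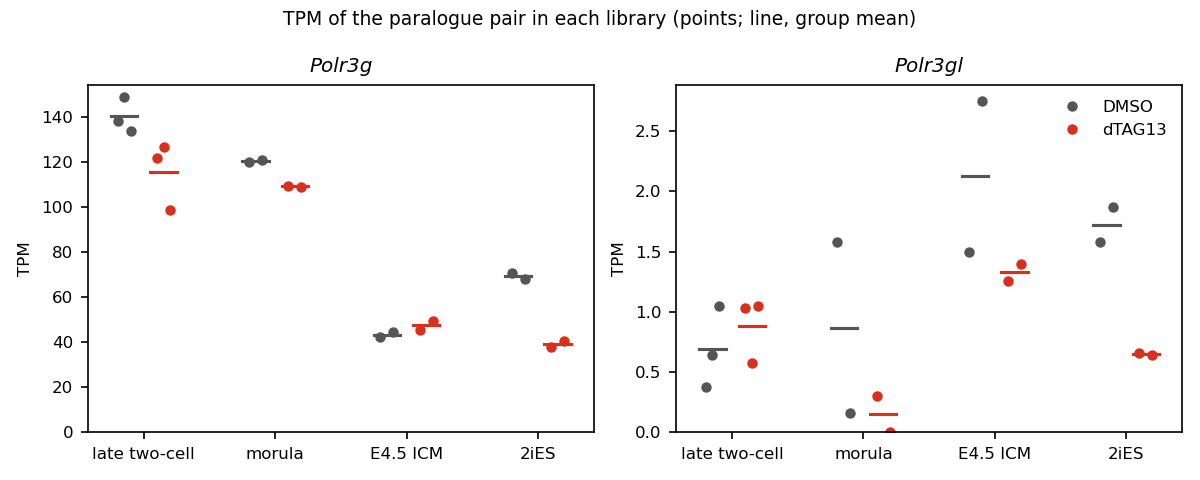
TPM of *Polr3g* (left) and *Polr3gl* (right, on its own scale) in each library (points) with the group mean (line), by stage and treatment. *Polr3g* lies between 38.0 and 149.1 TPM and *Polr3gl* stays under 3 TPM in all 18 libraries.

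Effects of dTAG13 were set against each other between stages by interaction terms. Late two-cell embryos and the E4.5 ICM differed by at least 1 on the log2 scale with an adjusted p under 0.05 for 4 members (16.2% of all 20854 genes tested). *Polr2m* fell further at the late two-cell stage (difference -1.65 ± 0.19), *Polr1e* and *Polr2d* fell in the E4.5 ICM beyond their late two-cell change (1.40 ± 0.16 and 1.18 ± 0.10), and *Polr2b* was higher in the E4.5 ICM beyond it (-1.10 ± 0.11). Between the E4.5 ICM and 2iES cells 0 members met both criteria in edgeR (26.6% of all 17657 genes), while 14 differed at an unadjusted p under 0.05 (50.4% of all genes) and 13 by the adjusted p alone (41.9%), shares near the background. Without 2iES DMSO replicate 2, when the share of all genes was 30.2%, there were 6, among them *Polr1c*, *Polr2h*, *Polr2m*, *Polr3a* and *Polr3b*, each by 1.04 to 1.06 in size.

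Of 40 further genes of these pathways, 4 encode subunits under other symbols. None of the 4 was called at any stage, and *Crcp*, a subunit of RNA polymerase III, was higher by the adjusted p in the E4.5 ICM (0.92 ± 0.04). By the same measure *Cd3eap* was higher there (0.32 ± 0.07), while *Znrd1* (-0.60 ± 0.05) and *Twistnb* (-0.44 ± 0.04) were lower. Among 7 factors of RNA polymerase I, *Taf1c*, a component of its promoter selectivity factor, was called lower in the E4.5 ICM (-1.58 ± 0.12) and 2iES cells (-2.36 ± 0.33), while *Taf1d* and *Ttf1* were called higher in 2iES cells (1.00 ± 0.12 and 1.22 ± 0.17). Among 16 factors of RNA polymerase III, *Gtf3c1*, the largest subunit of the factor that binds the internal promoter, was called higher in the E4.5 ICM (1.44 ± 0.08) and 2iES cells (1.26 ± 0.17). In 2iES cells 3 of the 16 were called lower, a share near the 15.6% of all genes, namely *Gtf3a*, the 5S RNA gene factor (-1.04 ± 0.16), *Snapc2* (-1.96 ± 0.19) and *Maf1*, a repressor of the enzyme (-1.66 ± 0.20).

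Of 13 genes for polymerase assembly and nuclear import, 2 were called lower at the late two-cell stage (3.63% of all genes), 4 in the E4.5 ICM (13.2%) and 6 in 2iES cells (15.6%), and none higher (0.476%, 12.1% and 12.4%). *Zpr1*, a zinc finger protein, was lower at all 3 stages (-2.17 ± 0.13, -1.71 ± 0.05 and -3.24 ± 0.20). *Gpn2*, a GTPase of polymerase assembly, stood at 22.3 TPM ± 0.919 with DMSO and 5.12 ± 0.0919 with dTAG13 in the E4.5 ICM (n = 2) and at 24.2 ± 6.39 against 2.6 ± 0.453 in 2iES cells (n = 2), differences of -2.11 ± 0.11 and -3.14 ± 0.25 (SE). *Rpap1*, which aids assembly of RNA polymerase II, was called lower at the same 2 stages (-1.91 ± 0.09 and -1.90 ± 0.19). *Ruvbl2*, an ATPase of the chaperone complex that assembles the polymerases, was called lower in late two-cell embryos (-1.95 ± 0.15) and the E4.5 ICM (-1.45 ± 0.03), and *Pih1d1* in 2iES cells (-2.66 ± 0.18). In morulae 0 of the 40 were called by edgeR. The medians of the 13 were 0.03, 0.09, -0.54 and -0.63 at the late two-cell stage, in morulae, the E4.5 ICM and 2iES cells, beside 0.02, -0.02, 0.01 and 0.03 for all genes.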

How the data were processed

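RNA was measured in 18 libraries by SMART-Seq v4 and Nextera XT, which do not keep the strand. By the study's methods the authors used Trimmomatic 0.39 for trimming, STAR for alignment to GRCm38 and RSEM, which splits reads shared between genes. Each library's deposited file holds an expected count, a TPM and an FPKM per gene, and no values were pooled. Identifiers were named from GENCODE M21, which held 54487 of them with their version and 657 more without it.

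For each stage, edgeR 4.0.16 (R 4.3.3) was run on the rounded expected counts with TMM scaling and the quasi-likelihood test. A gene entered if the number of libraries with 10 or more counts was no less than the size of the smaller group, with Benjamini-Hochberg adjustment over all genes tested. The SE of a fold change is its size divided by the square root of F. The call rule takes the study's cut-offs: an adjusted p under 0.05, a 2-fold change and a group mean of 1 FPKM or more. Contrasts between control stages used 1 fit of the 9 DMSO libraries, and interactions 1 fit of the stages compared. DESeq2 1.42.0, limma 3.58.1 on log2(TPM + 1), other scalings and filters, a replicate block and leaving out each library were alternatives. The comparison was tested on simulated data.

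Values in every library are given for members called at any stage, for the most and least changed member of each enzyme class at each stage, and for *Polr3g* and *Polr3gl*. The values of 1 member are not reported here and it is left out of the figures; counts and medians over the 28 include it. Members, pathway lists and marker lists were chosen with earlier results of these data known. Other members and pathway genes given with values were chosen after these were seen. Of 8 marker lists, those for granulosa cells, fibroblasts and blood summed to at most 43.7 TPM (blood, late two-cell) and that for late two-cell genes to 115.7 to 329.3 in late two-cell libraries. Replicates of each group differed by more than counting noise, with a ratio of median chi-square to its expected value of 1.63 to 16.1 taken over genes averaging 50 counts or more. Same-numbered libraries of the 2 treatments did not deviate together (correlations of -0.133 to 0.0546). Promoter windows came from RefSeq.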

Additional observations from a re-analysis of the deposited data

Results flagged for a closer look

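The dTAG13 effect on 4 members (16.2% of all 20854 genes tested met the same rule) differed between late two-cell embryos and the E4.5 ICM by an interaction term of at least 1 on the log2 scale with an edgeR adjusted p under 0.05. The difference, late two-cell minus E4.5 ICM, was -1.65 for *Polr2m* (edgeR adjusted p = 1.79e-04), 1.40 for *Polr1e* (2.04e-04), -1.10 for *Polr2b* (9.03e-05) and 1.18 for *Polr2d* (2.33e-05). Treatments lasted different times at the 2 stages, so stage and length of treatment cannot be told apart.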

How the results depend on the processing

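Under the adjusted p alone, calls with dTAG13 numbered 9 lower at the late two-cell stage, 18 lower and 7 higher in the E4.5 ICM and 17 lower and 2 higher in 2iES cells. Medians over the members moved by more than the spread between replicates with library totals (-0.19 late two-cell, -0.46 E4.5 ICM), with all 18 libraries in 1 fit (-0.51 E4.5 ICM, -0.68 2iES), with limma on log2(TPM + 1) (-0.26 and -0.56) and without the filter on low counts (-0.81 2iES). With library totals the medians of all genes moved too, from 0.02 to 0.1 at the late two-cell stage and from 0.01 to 0.07 in the E4.5 ICM. Leaving out each library in turn gave medians of -0.56 to -0.48 in the E4.5 ICM and -0.85 to -0.68 in 2iES cells, and called lower 0 to 1 members in morulae, 3 to 4 in the E4.5 ICM and 5 to 9 in 2iES cells. The 1 in morulae was *Polr2a* without DMSO replicate 2, which leaves 1 DMSO library. Members whose effect differed between the E4.5 ICM and 2iES cells numbered 0 to 6, and 4 to 5 between late two-cell embryos and the E4.5 ICM. *Polr2k* in 2iES cells, at 0.02, went from -0.18 without DMSO replicate 1 (edgeR adjusted p = 0.0223) to 0.18 without DMSO replicate 2.

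Control contrasts under the adjusted p alone gave 15 lower and 6 higher for morula against late two-cell (7544 and 6190 of all 19830 genes tested), 10 and 4 for E4.5 ICM against morula (4172 and 4884) and 6 and 15 for 2iES against E4.5 ICM (4113 and 4340). With limma the first gave 0 higher (3091 of all genes), the second 2 lower and 3 higher (1593 and 3643) and the third 5 lower and 1 higher (3351 and 895). With library totals the third gave 6 lower and 2 higher (3864 and 1260). Without 1 library the second gave 1 to 2 higher. DESeq2 called 2, 0, 3 and 6 members lower and 0, 0, 1 and 1 higher with dTAG13 in the order of the stages. A replicate block gave the same counts, with *Polr3gl* lost in 2iES cells (edgeR adjusted p = 0.0792), and medians of -0.27, 0.00, -0.53 and -0.74. Same-numbered libraries share only a number. The crossed block for 2iES cells, chosen after seeing the data for its correlation of -0.133, called 7 lower and 1 higher. Over single genes and settings, 1189 values kept their direction and side of the threshold, 60 no longer passed the adjusted p, 26 newly passed it and 1 passed it with the other sign. All 18 libraries in 1 fit, which shares 1 estimate of the spread, accounted for 13 of the 60, mostly in the E4.5 ICM. The low counts of *Polr3gl* limited what could be detected for it. The cause of these shifts was not tested.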
